A study of Mus musculus with 19 samples.

Results

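The lysosome is the acidic compartment in which macrophages and microglia digest what they engulf, and 44 genes that build and control it were followed in CD11b+ cells of the mouse brain. The 44 genes were chosen by name from the known functions of their products, with earlier results of these data known. They are part of 56980 genes in the count table, of which 18739 passed the low-count filter. All 44 members were in the table and passed. Total RNA was sequenced from CD11b+ cells enriched magnetically from whole brain (olfactory bulb and cerebellum removed) of 19 male mice aged 3 to 4 months. The 4 groups were wildtype littermates given PBS (n = 4), wildtype given LPS (n = 5), *PARK7*/DJ-1 KO given PBS (n = 5) and *PARK7*/DJ-1 KO given LPS (n = 5). LPS, a bacterial cell wall component from *E. coli* O55:B5, was injected intraperitoneally at 4 µg/g body weight and brains were taken 6 h later; the controls received the vehicle, labelled PBS in the sample titles and saline in the treatment text. The KO allele, Park7 Gt(XE726)Byg, is a gene trap carried in every cell of the animal on a C57BL/6NCrl background, so differences between genotypes need not arise in the CD11b+ cells themselves. The design asks how these cells respond to systemic inflammation with and without DJ-1.

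Lysosomal hydrolases are made in the endoplasmic reticulum, tagged with mannose-6-phosphate and delivered to a compartment that the vacuolar ATPase acidifies. Proteases, glycosidases, sulfatases and lipid enzymes then break down proteins, sugar chains and membrane lipids, and inherited loss of many of them gives lysosomal storage disorders, many of which affect the brain. The transcription factors TFEB, TFE3 and MITF bind a short palindromic sequence, the CLEAR element, in front of many of these genes. By role the members were 10 proteases (*Ctsa*, *Ctsb*, *Ctsc*, *Ctsd*, *Ctsh*, *Ctsl*, *Ctso*, *Ctsz*, *Lgmn*, *Tpp1*), 12 glycosidases (*Hexa*, *Gaa*, *Gusb*, *Glb1*, *Man2b1*, *Manba*, *Naglu*, *Neu1*, *Idua*, *Galc*, *Gla*, *Fuca1*), 3 sulfatases (*Arsa*, *Arsb*, *Ids*), 8 lipid enzymes, lipid transporters and saposins (*Lipa*, *Npc1*, *Npc2*, *Psap*, *Gm2a*, *Ppt1*, *Asah1*, *Smpd1*), 7 membrane proteins (*Lamp1*, *Lamp2*, *Cd63*, *Cd68*, *Laptm5*, *Scarb2*, *Mcoln1*) and 4 regulators (*Tfeb*, *Tfe3*, *Mitf* and the progranulin gene *Grn*).

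Library totals ranged from 11936364 to 22788884 counts (median 17211939), so that 3 counts, the upper limit that a count of 0 allows, correspond to 0.139 to 0.256 CPM (counts scaled to a common library size). *Park7* measured 20.6 to 32.1 CPM in the 9 wildtype libraries and 0.457 to 5.38 CPM in the 10 KO libraries. The summed level of 8 microglia markers had a median of 30648 CPM after PBS and 13581 CPM after LPS in wildtype, and 30066 and 14312 CPM in KO, and all 8 were lower after LPS in both genotypes. All 6 monocyte markers were higher after LPS in both genotypes, from a summed median of 39.2 to 324 CPM in wildtype and of 32.5 to 191 CPM in KO, and 3 of 7 neutrophil markers in wildtype and 4 of 7 in KO were also higher. Of 6 markers of border-associated macrophages, 3 were lower in each genotype. The 1 B lymphocyte marker that could be tested was lower in both, with log2FC -2.18 in wildtype and -2.66 in KO, and the 1 tested marker of T and NK lymphocytes was not called. Summed oligodendrocyte markers ranged from 558 to 11378 CPM over the libraries, with none of 6 called in any contrast. Among lists of 6 markers each, 1 astrocyte marker was higher after LPS in both genotypes, 1 neuron marker was higher in both and 1 lower in wildtype, and 2 endothelial markers were lower in both and 1 higher in KO. In bulk RNA, fewer cells of a type and less RNA per cell cannot be told apart, and the part of these shifts in the results below was not tested.

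After LPS most of the 44 members were lower, in both genotypes. Not all lists of other lysosomal genes, given further below, shared this. At an adjusted p-value under 0.05 and a |log2FC| of at least 0.5, 30 of the 44 members were lower, 4 were higher and 10 were not called in wildtype, whereas 17.4% of all tested genes were lower and 18.4% higher. In KO, 29 members were lower, 6 higher and 9 not called, beside 19% of all tested genes lower and 20.1% higher. The median log2FC of the members was -0.73 in wildtype and -0.75 in KO, against -0.06 and -0.01 for all tested genes. All 44 members had the same sign of log2FC in both genotypes, 36 of them negative. Of the members, 29 were called lower in both and 4, *Ctsc*, *Ctsl*, *Ctsz* and *Cd63*, higher in both. The shares of all tested genes with the same sign, or called, in both genotypes were not counted. How far the members exceed them was therefore not tested. *Ctsb* and *Gla* passed as higher in KO alone and *Ctsa* as lower in wildtype alone, although *Gla* also passed in wildtype in 3 of 19 alternatives (DESeq2, the marker score as covariate and only the groups compared), *Ctsb* in wildtype without PBS replicate 1, and *Ctsa* in KO in 4 of 20 alternatives, among them that without LPS replicate 5. The 8 genes called in neither were *Gusb*, *Neu1*, *Galc*, *Ids*, *Npc2*, *Lamp1*, *Lamp2* and *Tfe3*. The 2 contrasts share no library.

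Together the members took 2.31 to 3.00% of all counts of a library after PBS in wildtype (median 2.63%) and 1.59 to 1.99% after LPS (median 1.75%). The corresponding shares were 2.32 to 3.09% (median 2.64%) and 1.57 to 1.97% (median 1.85%) in KO. The PBS and LPS ranges did not overlap in either genotype. The summed level of the 12 glycosidases had a median of 2735 CPM after PBS and 1388 CPM after LPS in wildtype and of 2938 and 1465 CPM in KO, with no overlap, whereas that of the 10 proteases, the most abundant role, was 10119.9 and 8363 CPM in wildtype and 10124 and 9494 CPM in KO, and its PBS and LPS ranges overlapped in both genotypes. The sums of the sulfatases, the lipid enzymes, transporters and saposins, the membrane proteins and the regulators did not overlap in either genotype. All were lower after LPS. For the regulators in wildtype the lowest PBS library was at 1213 CPM and the highest LPS library at 1188 CPM. Of these sums *Grn* made up 950 and 946 CPM, so the regulator sum mainly follows *Grn*. The roles were not tested against each other. Gene by gene, the libraries of the LPS and PBS groups did not overlap for 30 members that were lower and 5 that were higher in wildtype, where 17% and 20.8% of all tested genes were separated in these directions. These were not exactly the members called in wildtype. *Ids*, *Lamp1*, *Neu1* and *Gla* were separated but not called, and *Ctsa*, *Cd68* and *Ctsz* were called but overlapped. In KO the groups were separated for 26 lower and 2 higher members, beside 16.6% and 16.2% of all tested genes.

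**Figure D1:**
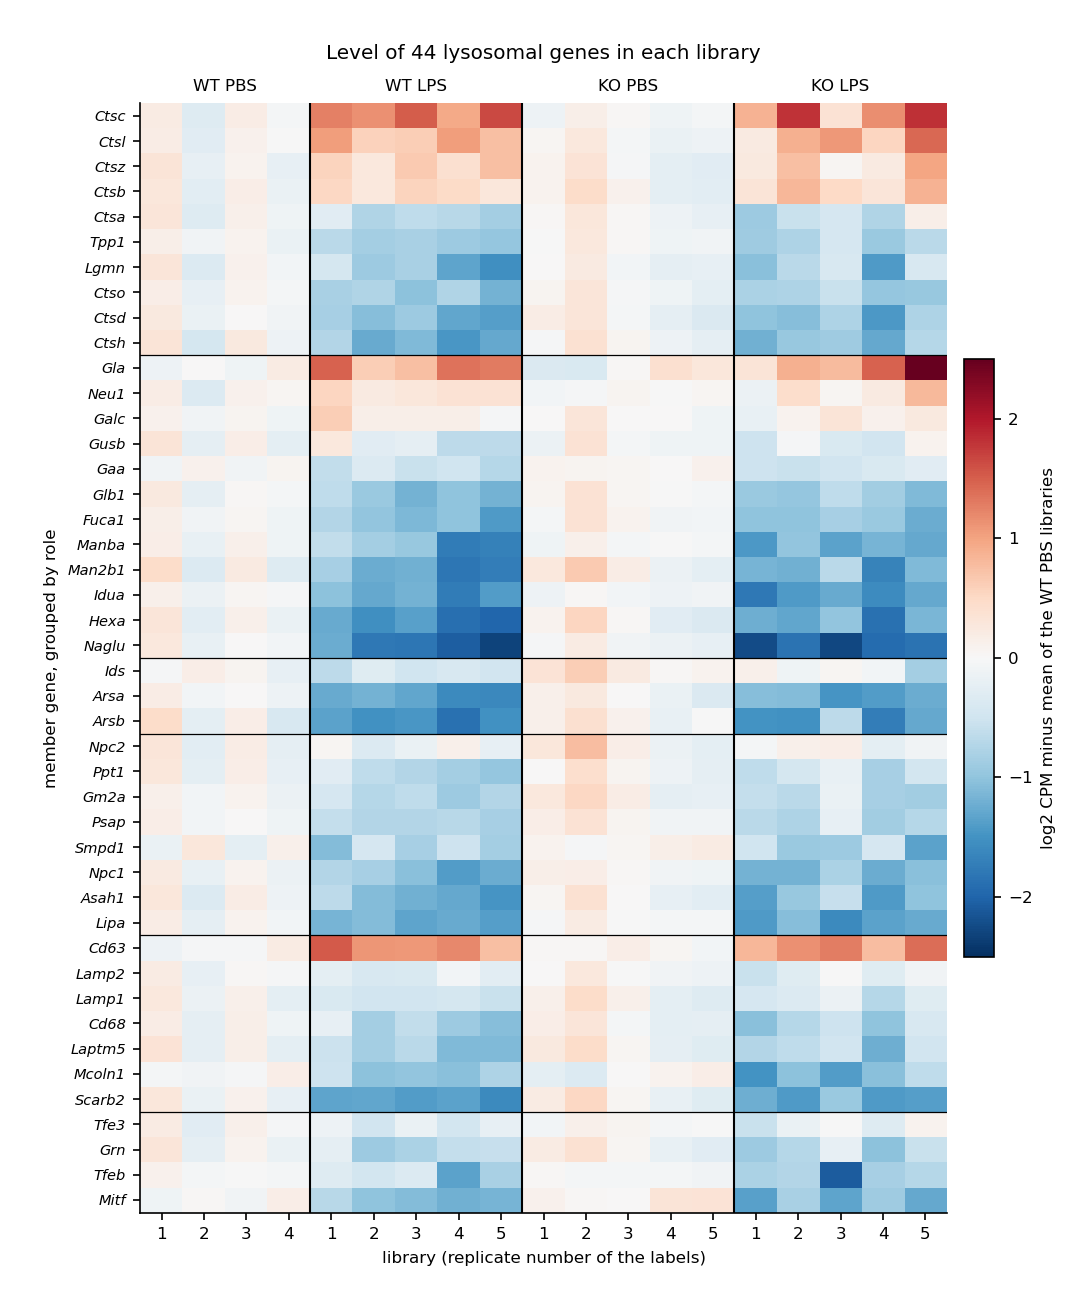
Log2 CPM of each of the 44 genes (rows, grouped by role) in each of the 19 libraries (columns), as the difference from the mean of the 4 wildtype PBS libraries; red is higher and blue lower. Most rows turn blue in the LPS columns of both genotypes, while *Ctsc*, *Ctsl*, *Cd63* and *Gla* turn red.

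Among the transcription factors, *Mitf* and *Tfeb* mRNA was lower after LPS and *Tfe3* was not called. *Mitf* measured 58.5, 63.8, 58.9 and 70.4 CPM in the wildtype PBS libraries, 38.8, 31.4, 29.6, 27.2 and 28.1 CPM after LPS in wildtype, 67.8, 63.8, 63.5, 78.9 and 80.01 CPM in the KO PBS libraries and 24.5, 35.7, 25.1, 33.8 and 25.8 CPM after LPS in KO. Every LPS library lay below every PBS library of its genotype, with log2FC -1.02 ± 0.13 in wildtype (adjusted p-value 5.92e-06) and -1.29 ± 0.13 in KO (adjusted p-value 1.74e-07); the ± of a log2FC is its standard error. *Tfeb* measured 75.3, 67.9, 70.2 and 67.99 CPM in the wildtype PBS libraries, 56.5, 51.03, 55.1, 27.8 and 39.99 CPM after LPS in wildtype, 71.4, 68.4, 67.9, 67.6 and 65.7 CPM in the KO PBS libraries and 40.8, 42.5, 16.5, 39.3 and 43.02 CPM after LPS in KO. The LPS libraries again lay below all PBS libraries, but they were spread more widely, down to a lowest value in replicate 3 of KO. The log2FC of *Tfeb* was -0.61 ± 0.22 in wildtype (adjusted p-value 0.0315) and -0.90 ± 0.21 in KO (adjusted p-value 0.00145); the call in wildtype was lost in 7 of 19 alternatives, 6 of which leave out a mouse. Those were wildtype PBS replicates 1, 2, 3 and 4 and wildtype LPS replicates 4 and 5. *Tfe3*, the most abundant of the 3 factors in CPM, went from 161 ± 23.2 CPM (SD, n = 4) to 132 ± 14.9 CPM (SD, n = 5) in wildtype and from 162 ± 9.68 CPM (SD, n = 5) to 142 ± 23.99 CPM (SD, n = 5) in KO, with overlapping groups and log2FC -0.29 ± 0.13 (adjusted p-value 0.0719) and -0.20 ± 0.12 (adjusted p-value 0.193). *Grn*, which encodes the secreted and lysosomal glycoprotein progranulin, went from 1122 ± 189 CPM (SD, n = 4) to 732 ± 135 CPM (SD, n = 5) in wildtype and from 1149 ± 215 CPM (SD, n = 5) to 706 ± 162 CPM (SD, n = 5) in KO, with log2FC -0.62 ± 0.18 in wildtype (adjusted p-value 0.0104) and -0.70 ± 0.17 in KO (adjusted p-value 0.0025).

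The promoters of the members were searched for the letters these factors read. In the 300 bases from 250 before to 50 after the annotated transcript start (GRCm39, GENCODE M39), the E-box CACGTG was present in 9 of 44 members (20.5%), in 9.5% of the windows of 14469 tested protein-coding genes and in 7.81% of all 21770 windows. The longer palindrome TCACGTGA, which contains CACGTG and is the core of the CLEAR element, was present in 3 of 44 members (6.82%), *Ctsb*, *Gla* and *Mcoln1*, in 1.51% of the windows of tested genes and in 1.11% of all windows. Both words read the same on either strand. By response, CACGTG was present in 6 of the 29 members lower in both genotypes (20.7%), in 0 of the 4 higher in both and in 1 of the 8 called in neither (12.5%). *Ctsb* and *Gla*, called higher in KO alone, both held CACGTG as part of the longer word, and *Ctsa*, called lower in wildtype alone, did not hold it. A match describes the letters and is not a measured binding site. The stretches of 60 bases upstream of the start that hold the word are shown for the 5 members in which it lay wholly before the start, with CACGTG, or TCACGTGA for *Gla*, in capitals:
Ctsd: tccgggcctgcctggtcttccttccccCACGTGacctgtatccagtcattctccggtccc
Gaa: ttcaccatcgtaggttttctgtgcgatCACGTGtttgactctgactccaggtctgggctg
Glb1: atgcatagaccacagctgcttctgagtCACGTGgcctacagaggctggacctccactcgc
Lamp1: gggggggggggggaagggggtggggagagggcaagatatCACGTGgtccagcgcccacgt
Gla: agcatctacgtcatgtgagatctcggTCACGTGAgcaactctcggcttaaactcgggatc
Each is written 5′ to 3′ along the gene. They lie at chr7:141941777-141941836, minus strand (*Ctsd*), chr11:119158622-119158681, plus strand (*Gaa*), chr9:114230071-114230130, plus strand (*Glb1*), chr8:13209061-13209120, plus strand (*Lamp1*) and chrX:133501916-133501975, minus strand (*Gla*), all in GRCm39. CACGTG begins 34 bases before the start of *Ctsd*, 64 before *Gaa*, 46 before *Glb1*, 21 before *Lamp1* and 44 before *Gla*. *Lamp1* held 4 copies of CACGTG in its window and *Gla* held 2 of TCACGTGA. The log2FC after LPS in wildtype of these genes ran from -1.09 (*Ctsd*), -0.99 (*Glb1*), -0.54 (*Gaa*) and -0.48 (*Lamp1*) to 1.14 (*Gla*), so the word stood before genes of both signs.

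The proteases were split. In wildtype 6 of 10 were lower and 3 higher, and in KO 5 were lower and 4 higher. *Ctsc*, the dipeptidyl peptidase that activates serine proteases of granulocytes, gave the largest rise among the proteases. *Ctsc* measured 517, 363, 509.5 and 433 CPM in the wildtype PBS libraries, 1077, 990.4, 1285, 867 and 1409 CPM after LPS in wildtype, 412, 500.4, 461, 421 and 433 CPM in the KO PBS libraries and 827, 1573, 575, 1008 and 1592 CPM after LPS in KO. All LPS libraries lay above all PBS libraries of their genotype, with log2FC 1.31 ± 0.24 in wildtype (adjusted p-value 0.000227) and 1.32 ± 0.22 in KO (adjusted p-value 7.72e-05). *Ctsl*, a broad cysteine endopeptidase, went from 377 ± 50.4 CPM (SD, n = 4) to 662 ± 106 CPM (SD, n = 5) in wildtype and from 375 ± 46.8 CPM (SD, n = 5) to 697 ± 224 CPM (SD, n = 5) in KO, with log2FC 0.81 ± 0.19 in wildtype (adjusted p-value 0.00226) and 0.89 ± 0.18 in KO (adjusted p-value 0.000477). *Ctsz*, a carboxypeptidase, stood near the limit of 0.5, with log2FC 0.51 ± 0.19 in wildtype (adjusted p-value 0.0361) and 0.51 ± 0.18 in KO (adjusted p-value 0.0249), and lost its call in 14 of 19 alternatives in wildtype and in 9 of 20 in KO. *Ctsb*, an abundant cysteine protease, also stood near that limit, with log2FC 0.41 ± 0.18 in wildtype (adjusted p-value 0.0824) and 0.53 ± 0.17 in KO (adjusted p-value 0.0174); its call in KO was lost in 8 of 20 alternatives. Leaving out a single mouse ended the *Ctsz* call without wildtype PBS replicates 2, 3 and 4, wildtype LPS replicates 1, 3 and 5, KO PBS replicates 4 and 5, or KO LPS replicates 2 and 5, and the *Ctsb* call without any of those 4 KO mice.

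The falling proteases included *Ctsd*, the one with the highest level per kilobase over the 19 libraries. *Ctsd*, the main aspartic protease of the lysosome, measured 3192, 2411, 2693 and 2534 CPM after PBS and 1519.7, 1284, 1430.2, 1088 and 1038 CPM after LPS in wildtype. In KO it measured 3049.8, 3304, 2585, 2296 and 2081 CPM after PBS and 1347, 1283, 1583, 990.5 and 1585 CPM after LPS. The groups were separated in both genotypes, with log2FC -1.09 ± 0.18 in wildtype (adjusted p-value 5.17e-05) and -0.97 ± 0.17 in KO (adjusted p-value 8.78e-05). *Ctsh*, an aminopeptidase, gave log2FC -1.17 ± 0.17 in wildtype (adjusted p-value 2.08e-05) and -1.02 ± 0.17 in KO (adjusted p-value 4.69e-05). *Ctso*, a cysteine protease of lower abundance, gave log2FC -0.90 ± 0.12 in wildtype (adjusted p-value 9.22e-06) and -0.80 ± 0.12 in KO (adjusted p-value 1.6e-05). *Tpp1*, *Lgmn* and *Ctsa*, described after their values were seen, had log2FC -0.85, -0.97 and -0.64 in wildtype and -0.75, -0.70 and -0.46 in KO; the value of *Ctsa* in KO had an adjusted p-value of 0.0444 and missed the limit on fold change.

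**Figure D2:**
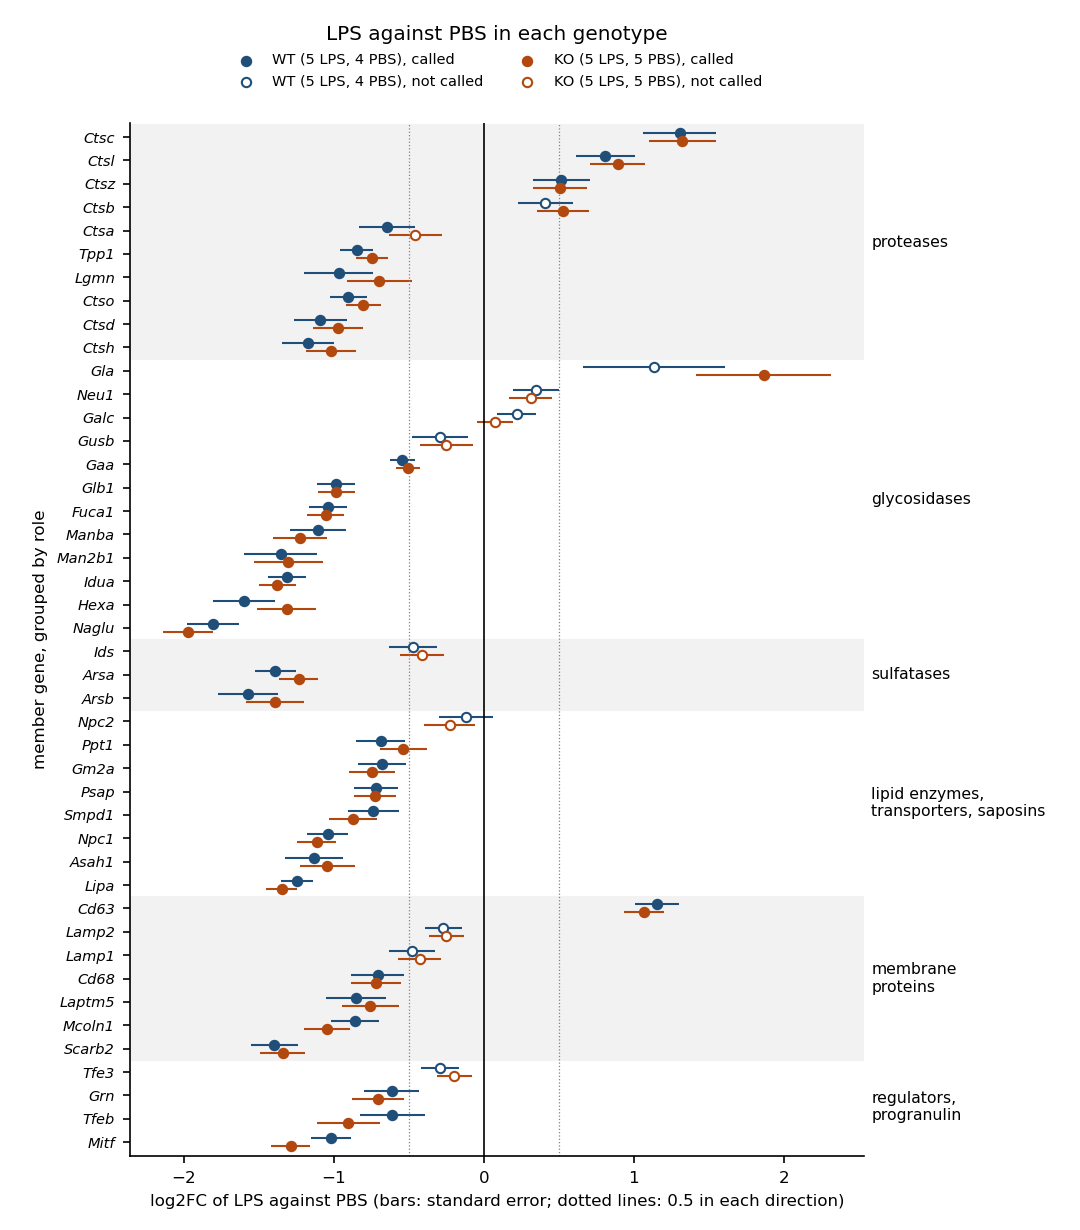
Log2FC of LPS against PBS for each of the 44 genes in wildtype (blue) and KO (orange) with its standard error; filled points passed an adjusted p-value under 0.05 and a |log2FC| of at least 0.5. The estimates of the 2 genotypes lie close together for most genes, with 36 genes left of zero in both.

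Of the 12 glycosidases, 8 were lower in wildtype and the same 8 in KO. *Naglu*, the alpha-N-acetylglucosaminidase that degrades heparan sulfate, fell most of all 44 members. *Naglu* measured 155, 113, 129.5 and 123 CPM in the wildtype PBS libraries, 54.9, 37.4, 36.7, 31.01 and 26.01 CPM after LPS in wildtype, 127, 149, 122, 117 and 112 CPM in the KO PBS libraries and 27.5, 35.8, 26.4, 33.95 and 35.9 CPM after LPS in KO. The highest LPS library lay below the lowest PBS library in both genotypes, with log2FC -1.81 ± 0.17 in wildtype (adjusted p-value 1.11e-07) and -1.97 ± 0.17 in KO (adjusted p-value 1.82e-08). *Hexa*, the alpha subunit of beta-hexosaminidase, which degrades GM2 ganglioside, measured 816, 547, 726 and 589 CPM after PBS and 276, 227, 256, 179.6 and 168 CPM after LPS in wildtype, and 704, 954, 676, 545 and 515 CPM after PBS and 282, 269, 336, 180.2 and 298 CPM after LPS in KO. These groups were separated as well, with log2FC -1.60 ± 0.21 in wildtype (adjusted p-value 4.21e-06) and -1.32 ± 0.20 in KO (adjusted p-value 1.81e-05). *Idua*, the alpha-L-iduronidase that acts on heparan and dermatan sulfate, went from 70.1 ± 5.42 CPM (SD, n = 4) to 28.3 ± 5.05 CPM (SD, n = 5) in wildtype and from 66.4 ± 2.95 CPM (SD, n = 5) to 25.6 ± 3.71 CPM (SD, n = 5) in KO, with log2FC -1.31 ± 0.13 in wildtype (adjusted p-value 1.66e-07) and -1.38 ± 0.12 in KO (adjusted p-value 3.97e-08). *Manba*, the beta-mannosidase and the member with the lowest level per kilobase over all 19 libraries and in both LPS groups, though not in the PBS groups, gave log2FC -1.11 ± 0.19 in wildtype (adjusted p-value 8.41e-05) and -1.23 ± 0.18 in KO (adjusted p-value 1.41e-05). The other genes called lower, *Man2b1*, *Fuca1*, *Glb1* and *Gaa*, had log2FC between -1.36 and -0.54 in wildtype and between -1.30 and -0.51 in KO; *Gaa*, at the end nearest zero, lost its call in 8 of 20 alternatives in KO and in 2 of 19 in wildtype. *Gaa* was not called in wildtype without PBS replicates 2 or 4, and in KO without PBS replicates 3 or 5 or LPS replicates 1, 2 or 3.

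*Galc*, the galactosylceramidase that degrades myelin galactolipids, was not called in either genotype. It measured 63.4, 55.3, 61.9 and 54.8 CPM after PBS and 90.5, 64.6, 64.7, 64.9 and 57.8 CPM after LPS in wildtype, with log2FC 0.22 ± 0.13 (adjusted p-value 0.193). In KO it measured 59.05, 72.2, 58.98, 59.4 and 54.3 CPM after PBS and 51.4, 62.4, 73.7, 63.1 and 69.5 CPM after LPS, with log2FC 0.07 ± 0.12 (adjusted p-value 0.661), and it was the member whose sign changed under an alternative. *Gla*, the alpha-galactosidase A that degrades globotriaosylceramide, had a positive log2FC in both genotypes and was singled out after its values were seen. *Gla* measured 18.7, 20.4, 18.99 and 23.6 CPM in the wildtype PBS libraries, 56.5, 31.3, 34.3, 52.5 and 49.9 CPM after LPS in wildtype, 15.9, 15.6, 20.7, 26.7 and 24.9 CPM in the KO PBS libraries and 25.5, 37.7, 35.3, 56.5 and 224 CPM after LPS in KO. The wildtype groups were separated, while in KO the lowest LPS library, at 25.5 CPM, lay below the highest PBS library, and replicate 5 after LPS stood far above the others. The log2FC was 1.14 ± 0.47 in wildtype (adjusted p-value 0.0623) and 1.86 ± 0.45 in KO (adjusted p-value 0.00196). Both standard errors rest on a spread estimated from all 19 libraries, that KO library among them. With only the wildtype groups fitted, *Gla* passed as higher in wildtype. The part of that KO library in the missed wildtype call was not tested. Without replicate 5 of the KO LPS group, the KO value was 0.90 ± 0.23 and still passed (adjusted p-value 0.00311). *Neu1*, a sialidase, and *Gusb*, a beta-glucuronidase, also named after their values were seen, had log2FC 0.35 and -0.29 in wildtype and 0.31 and -0.25 in KO.

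Both *Arsa* and *Arsb* fell among the 3 sulfatases. *Arsb*, the arylsulfatase B that acts on dermatan and chondroitin sulfate, measured 549, 337, 450.1 and 303 CPM after PBS and 158, 139, 145, 109 and 139.7 CPM after LPS in wildtype, and 438, 525, 432, 349 and 398 CPM after PBS and 142, 139, 252, 121 and 164 CPM after LPS in KO. All LPS libraries lay below all PBS libraries, with log2FC -1.57 ± 0.20 in wildtype (adjusted p-value 4.21e-06) and -1.39 ± 0.19 in KO (adjusted p-value 8.31e-06). *Arsa*, which degrades sulfatide, a lipid of myelin, went from 60.2 ± 5.91 CPM (SD, n = 4) to 22.97 ± 3.16 CPM (SD, n = 5) in wildtype and from 59.5 ± 9.73 CPM (SD, n = 5) to 25.3 ± 3.18 CPM (SD, n = 5) in KO, with log2FC -1.39 ± 0.14 in wildtype (adjusted p-value 1.58e-07) and -1.24 ± 0.13 in KO (adjusted p-value 2.81e-07). *Ids*, the iduronate-2-sulfatase, passed the limit on the adjusted p-value but not that on fold change, at log2FC -0.47 (adjusted p-value 0.0213) and -0.41 (adjusted p-value 0.0299); it was called in 5 of 19 alternatives in wildtype, among them that without PBS replicate 4, and in 1 of 20 in KO.

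The lipid enzymes, transporters and saposins fell in 7 of 8 cases in each genotype. *Lipa*, the acid lipase that releases cholesterol and fatty acids from their esters, had the lowest adjusted p-value of the 44 members in both genotypes. *Lipa* measured 172, 129, 161 and 145 CPM in the wildtype PBS libraries, 67.6, 71.2, 60.2, 62.7 and 58.2 CPM after LPS in wildtype, 148, 175, 149, 146 and 145 CPM in the KO PBS libraries and 56.4, 71.6, 50.01, 59.5 and 62.6 CPM after LPS in KO. The PBS groups lay wholly above the LPS groups, with log2FC -1.25 ± 0.11 in wildtype (adjusted p-value 4.15e-08) and -1.35 ± 0.10 in KO (adjusted p-value 6.31e-09). *Npc1*, the membrane protein that exports cholesterol from the lysosome, went from 365 ± 49.3 CPM (SD, n = 4) to 177 ± 33.2 CPM (SD, n = 5) in wildtype and from 369.9 ± 31.9 CPM (SD, n = 5) to 171 ± 22.7 CPM (SD, n = 5) in KO, with log2FC -1.04 ± 0.14 in wildtype (adjusted p-value 4.82e-06) and -1.11 ± 0.13 in KO (adjusted p-value 9.92e-07). Its soluble partner *Npc2*, named after its values were seen, was not called, with log2FC -0.12 ± 0.18 and -0.23 ± 0.17. *Asah1*, the acid ceramidase, gave log2FC -1.13 ± 0.19 in wildtype (adjusted p-value 9.77e-05) and -1.04 ± 0.18 in KO (adjusted p-value 0.000119). *Psap*, the precursor of the saposins that present sphingolipids to their hydrolases, measured 3364, 2847, 2996 and 2759 CPM after PBS and 1967, 1797, 1801, 1837 and 1672 CPM after LPS in wildtype. In KO it measured 3356, 3836, 3143, 2814 and 2819 CPM after PBS and 1859, 1749, 2583, 1642 and 1823 CPM after LPS, with log2FC -0.72 ± 0.15 in wildtype (adjusted p-value 0.000511) and -0.73 ± 0.14 in KO (adjusted p-value 0.000253). *Gm2a*, *Ppt1* and *Smpd1* had log2FC between -0.74 and -0.68 in wildtype and between -0.87 and -0.54 in KO; *Ppt1* lost its call in KO in 3 of 20 alternatives, without PBS replicate 2 or LPS replicates 1 or 4.

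Of the 7 membrane proteins, 4 were lower and 1 higher in each genotype. *Cd63*, a tetraspanin of late endosomes, lysosomes and exosomes, was the gene that rose. *Cd63* measured 82.00, 87.6, 87.4 and 103 CPM in the wildtype PBS libraries, 259, 194, 189, 207 and 151 CPM after LPS in wildtype, 91.2, 91.1, 100.2, 92.3 and 85.6 CPM in the KO PBS libraries and 160.3, 198, 217, 153 and 237 CPM after LPS in KO. The groups were separated in both genotypes, with log2FC 1.15 ± 0.15 in wildtype (adjusted p-value 3.64e-06) and 1.07 ± 0.14 in KO (adjusted p-value 2.9e-06). *Scarb2*, the LIMP-2 protein that carries glucocerebrosidase to the lysosome, measured 812, 595, 720.2 and 583 CPM after PBS and 269, 274, 255, 265 and 223 CPM after LPS in wildtype, and 776, 959.8, 692, 586 and 545 CPM after PBS and 286, 253, 354, 253 and 258 CPM after LPS in KO. Its LPS libraries all lay below its PBS libraries, with log2FC -1.40 ± 0.16 in wildtype (adjusted p-value 8.79e-07) and -1.34 ± 0.15 in KO (adjusted p-value 6.39e-07). *Mcoln1*, a calcium channel of the lysosomal membrane, went from 71.3 ± 5.81 CPM (SD, n = 4) to 39.3 ± 6.46 CPM (SD, n = 5) in wildtype and from 68.6 ± 10.1 CPM (SD, n = 5) to 33.3 ± 8.06 CPM (SD, n = 5) in KO, with log2FC -0.86 ± 0.16 in wildtype (adjusted p-value 0.000225) and -1.04 ± 0.15 in KO (adjusted p-value 1.45e-05). *Laptm5*, a membrane protein of hematopoietic lysosomes, gave log2FC -0.85 ± 0.20 in wildtype (adjusted p-value 0.0018) and -0.76 ± 0.19 in KO (adjusted p-value 0.00276). *Cd68*, a glycoprotein used as a marker of phagocytes, had log2FC -0.71 and -0.72 and was called in both. The structural proteins *Lamp1* and *Lamp2*, named after their values were seen, were not called, with log2FC -0.48 and -0.27 in wildtype and -0.43 and -0.25 in KO; *Lamp1* passed in 10 of 19 alternatives in wildtype, among them those without PBS replicates 2 or 4 or LPS replicate 1, and in 1 of 20 in KO.

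**Figure D3:**
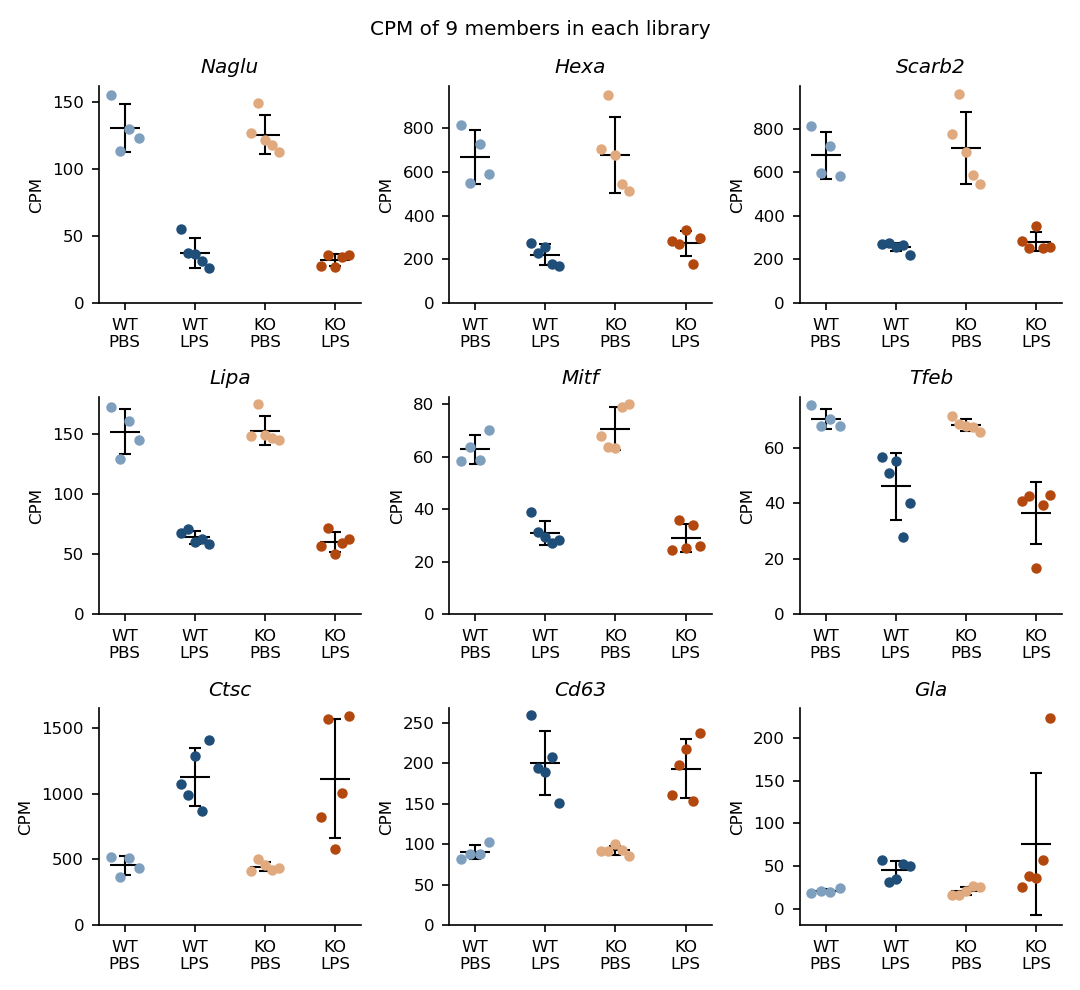
CPM in each library for 9 members, with the mean and SD of each group in black; axes start at or below 0. *Naglu*, *Hexa*, *Scarb2*, *Lipa*, *Mitf* and *Tfeb* are lower and *Ctsc* and *Cd63* higher in the LPS groups, and for *Gla* the KO LPS library at 224 CPM stands apart.

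Levels between genes were compared as CPM per kilobase of exon. Over the 19 libraries *Psap* was highest at 769 CPM per kb, followed by *Ctsd* at 709, *Laptm5* at 523, *Ctsb* at 373 and *Grn* at 236 CPM per kb. The lowest were *Mitf* at 4.70, *Galc* at 3.60 and *Manba* at 3.47 CPM per kb. These means pool both treatments. *Galc* was the lowest after PBS, with group means of 3.35 CPM per kb in wildtype and 3.46 in KO beside 4.95 and 4.86 for *Manba*. After LPS *Manba* was the lowest, at 2.30 and 2.08 CPM per kb beside 3.90 and 3.65 for *Galc*. In wildtype after PBS the group mean was 978 CPM per kb for *Ctsd* and 937 for *Psap*, and after LPS it was 459.7 and 568 CPM per kb. In KO *Psap* was first in both treatments, at 999.9 CPM per kb after PBS and 605 after LPS, with *Ctsd* at 963 and 491 CPM per kb. *Laptm5* stood above *Ctsb* after PBS and below it after LPS in both genotypes. *Ctsb* measured 305 CPM per kb after PBS and 406 after LPS in wildtype and 314 and 452 in KO, and *Laptm5* 661 and 366 CPM per kb in wildtype and 686 and 405 in KO. These orders were not tested. Reads that fall where *Ctsd*, *Ctsl* and *Glb1* share exon sequence on the same strand with Gm49369, Gm49230 and *Tmppe*, respectively, may be left uncounted. The levels of these members may therefore be understated in every library alike. Over all libraries *Tmppe* had 7491 counts beside 19354 of *Glb1*, while Gm49369 and Gm49230 had 0. If strand was not used in counting, exon sequence shared on the opposite strand could act likewise.

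Lists of other lysosomal genes are given by their counts, to be read against the 18.4% higher and 17.4% lower of all tested genes in wildtype and the 20.1% and 19% in KO. Of 17 vacuolar ATPase subunits 16 were tested; 2 were higher and 1 lower in wildtype and 3 higher and 1 lower in KO, with medians of -0.06 and -0.09, which is at or below those shares. *Atp6v0c*, the subunit that forms the proton-conducting ring, went from 134 ± 13.04 CPM (SD, n = 4) to 228 ± 35.1 CPM (SD, n = 5) in wildtype and from 138 ± 24.7 CPM (SD, n = 5) to 259 ± 61.9 CPM (SD, n = 5) in KO, with log2FC 0.77 ± 0.17 in wildtype (adjusted p-value 0.000916) and 0.91 ± 0.15 in KO (adjusted p-value 7.45e-05). *Atp6v0a2*, a membrane-anchoring subunit, gave log2FC -0.73 ± 0.16 in wildtype (adjusted p-value 0.00086) and -0.73 ± 0.15 in KO (adjusted p-value 0.00049). Of 6 genes of mannose-6-phosphate tagging and sorting, 1 was higher in wildtype and 2 in KO and 0 were lower, with medians of 0.11 and -0.09; *M6pr*, the cation-dependent receptor that delivers hydrolases, gave log2FC 0.79 ± 0.17 in wildtype (adjusted p-value 0.000898) and 0.88 ± 0.16 in KO (adjusted p-value 0.000133). Of 18 other lysosomal hydrolases and cofactors, 2 were higher and 7 lower in wildtype and 2 higher and 8 lower in KO, with medians of -0.24 and -0.26.

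The widest changes of these lists were in *Sgsh* and *Acp5*. *Sgsh*, the sulfamidase that acts on heparan sulfate as *Naglu* and *Idua* do, measured 62.8, 48.9, 55.3 and 48.5 CPM after PBS and 7.87, 6.91, 4.22, 4.03 and 3.92 CPM after LPS in wildtype, and 55.5, 61.02, 52.9, 45.5 and 49.2 CPM after PBS and 6.75, 4.40, 6.70, 3.75 and 2.31 CPM after LPS in KO. The PBS and LPS groups lay far apart, with log2FC -3.32 ± 0.27 in wildtype (adjusted p-value 1.85e-08) and -3.46 ± 0.26 in KO (adjusted p-value 5.25e-09). *Acp5*, the tartrate-resistant acid phosphatase of macrophages and osteoclasts, measured 0.313, 1.15, 0.526 and 1.80 CPM after PBS and 13.6, 13.3, 11.4, 14.9 and 22.00 CPM after LPS in wildtype, and 0.491, 0.554, 0.965, 1.26 and 1.13 CPM after PBS and 8.16, 9.60, 12.6, 12.6 and 10.3 CPM after LPS in KO, with log2FC 3.98 ± 0.41 in wildtype (adjusted p-value 3.36e-07) and 3.58 ± 0.37 in KO (adjusted p-value 2.45e-07). The 3 inhibitors of cathepsins were all called, 2 higher and 1 lower in both genotypes. *Cst7*, cystatin F, which inhibits *Ctsc* and related proteases inside the cell, went from 2.84 ± 0.603 CPM (SD, n = 4) to 15.9 ± 2.28 CPM (SD, n = 5) in wildtype and from 3.18 ± 1.05 CPM (SD, n = 5) to 16.9 ± 4.85 CPM (SD, n = 5) in KO, with log2FC 2.48 ± 0.27 in wildtype (adjusted p-value 5.33e-07) and 2.41 ± 0.24 in KO (adjusted p-value 1.81e-07). *Cst3*, the abundant secreted cystatin C, gave log2FC -0.74 ± 0.24 in wildtype (adjusted p-value 0.02) and -0.73 ± 0.23 in KO (adjusted p-value 0.0146). A list of 13 genes held those of Ragulator, the Rag GTPases and folliculin together with *Fnip1*, *Fnip2*, *Mtor* and *Rptor*. Their products set where TFEB and TFE3 reside in the cell. Of these 13 genes, 5 were lower and 0 higher in each genotype, with medians of -0.38 and -0.46. *Flcn* gave log2FC -0.98 ± 0.22 in wildtype (adjusted p-value 0.00117) and -0.86 ± 0.21 in KO (adjusted p-value 0.00187).

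**Figure D4:**
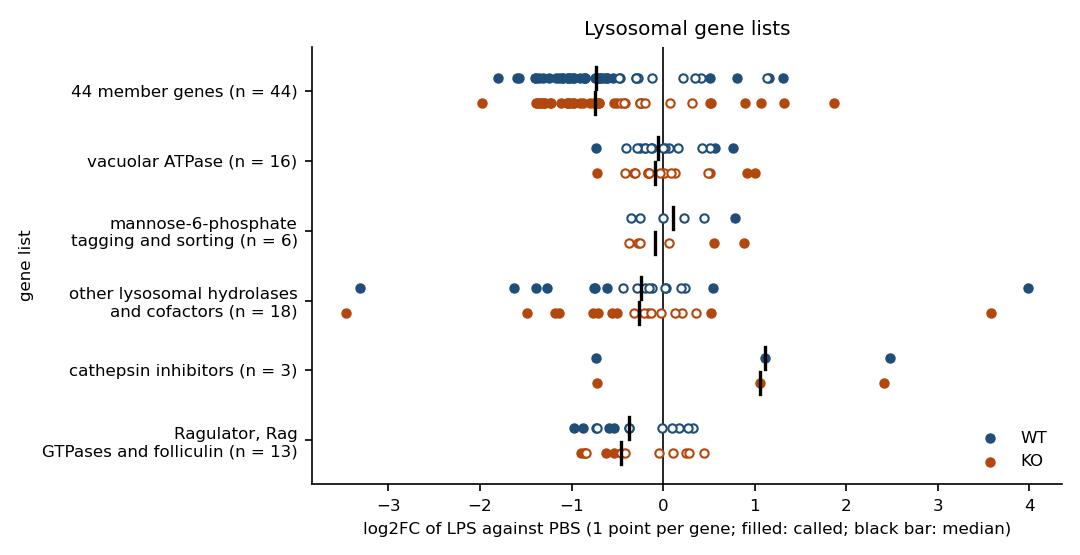
Log2FC of LPS against PBS in wildtype (blue) and KO (orange) for each gene of the 44 members and of 5 further lists; filled points were called and black bars are medians. The members have medians of -0.73 and -0.75, the vacuolar ATPase list -0.06 and -0.09.

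Between genotypes no member was called. The threshold was that of the study, an unadjusted p-value under 0.05 and a |log2FC| of at least 0.5, which 0.544% of tested genes passed as higher and 0.763% as lower in KO after LPS, and 0.224% and 0.576% at baseline after PBS. Of the members 0 passed in either direction and treatment with edgeR, and 0 with DESeq2. At an unadjusted p-value under 0.05 and any fold change, 1 member passed after LPS and 0 after PBS, beside 2.57% and 1.04% of all tested genes, so these counts do not exceed the background. That gene, *Ids*, named after its value was seen, measured 134, 171, 150.1, 159 and 151 CPM in wildtype and 229.6, 196, 218, 201 and 118 CPM in KO after LPS; 4 KO libraries lay above all wildtype libraries and 1 below them, with log2FC 0.33 (95% interval 0.02 to 0.65) and an adjusted p-value of 1. After PBS its log2FC was 0.27 (95% interval -0.06 to 0.61).

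The log2FC of KO against wildtype ranged over the members from -0.08 to 0.27 after PBS, with a median of 0.02, and from -0.34 to 0.75 after LPS, with a median of 0.08. The 95% interval lay within 0.5 in either direction for 37 of 44 members after PBS and for 30 of 44 after LPS, and within 1 for 44 and 43. *Lipa* had log2FC 0.01 (95% interval -0.22 to 0.24) after PBS and -0.09 (95% interval -0.31 to 0.12) after LPS. For *Mitf* the values were 0.17 (95% interval -0.11 to 0.45) and -0.10 (95% interval -0.37 to 0.17). The most negative value after LPS was that of *Tfeb*, -0.34 (95% interval -0.78 to 0.10), beside -0.04 (95% interval -0.50 to 0.41) after PBS. The most positive was that of *Gla*, 0.75 (95% interval -0.16 to 1.66), and without replicate 5 of the KO LPS group it was -0.21 ± 0.23. *Hexa* gave 0.30 (95% interval -0.10 to 0.71) after LPS and *Ctsd* 0.09 (95% interval -0.25 to 0.44).

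**Figure D5:**
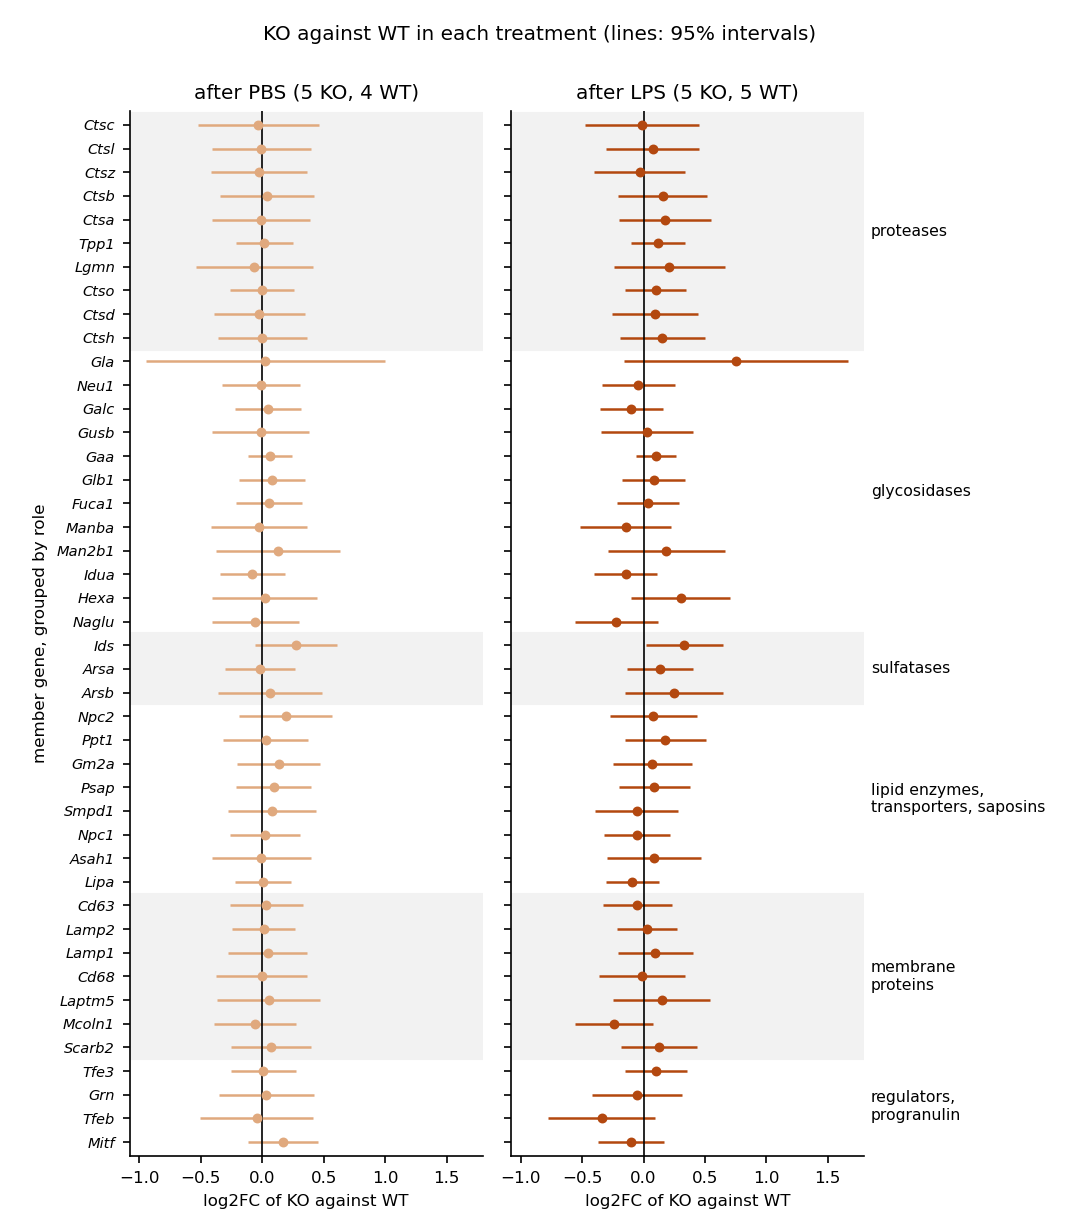
Log2FC of KO against wildtype for each of the 44 genes after PBS (left) and after LPS (right), with 95% intervals as lines. After PBS every interval includes 0, and after LPS all but that of *Ids*.

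The difference between the LPS responses of the genotypes was tested as an interaction. No member passed an adjusted p-value of 0.05, nor did any tested gene (0%), and 0 members had an unadjusted p-value under 0.05, beside 0.961% of all tested genes; DESeq2 also called 0 members. The interaction ranged from -0.30 ± 0.30 for *Tfeb* to 0.73 ± 0.63 for *Gla* (unadjusted p-values 0.342 and 0.264), and without replicate 5 of the KO LPS group that of *Gla* was -0.24 ± 0.32. The calls of *Ctsb* and *Gla* in KO alone and of *Ctsa* in wildtype alone are therefore not shown to differ between genotypes, with interactions of 0.11 ± 0.25, 0.73 ± 0.63 and 0.19 ± 0.26.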

How the data were processed

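The authors sequenced stranded total RNA depleted of ribosomal RNA from CD11b+ brain cells of 19 mice, trimmed reads with Cutadapt, aligned and counted them per gene with STAR 2.7.9a on GRCm39 with Ensembl annotation, and deposited 1 table of raw counts, whole numbers with no normalization; the submitters' processing notes also list cutadapt 0.17.4. Groups were taken from the sample labels and each mouse is 1 library. The labels give no shared cage, litter or batch. The smallest chi-square of counts per degree of freedom between libraries of a group was 6.5, so no library was a copy of another of its group. Libraries of different groups were not compared in this way. Genes were named by GENCODE M39 (56236 of 56980 matched).

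The deposited counts were tested with edgeR 4.0.16 (R 4.3.3; TMM normalization, filterByExpr with a minimum count of 10 and a total of 15, quasi-likelihood test) in 1 fit of the 4 groups without covariates, and p-values were adjusted by Benjamini-Hochberg over 18739 genes. LPS contrasts were called at an adjusted p-value under 0.05 and a |log2FC| of at least 0.5, genotype contrasts at that fold change and a p-value under 0.05 before adjustment. Standard errors are |log2FC| divided by the root of F, and 95% intervals use the t distribution with the degrees of freedom of the quasi-likelihood fit. CPM used TMM effective sizes, log2 CPM a prior count of 2, and CPM per kb the union of GENCODE M39 exons. With 3 counts as the floor, detection limits cover counting error only. *Ctsl* had 168558 counts over all libraries and its antisense neighbour Gm47123 had 3. These counts do not show whether strand was used in counting, since unstranded counting may leave reads in shared exon sequence uncounted.

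Genes described by name were, per role, the 3 with the largest mean LPS log2FC in each direction that passed in both genotypes, any member called between genotypes, *Tfeb*, *Tfe3*, *Mitf*, the 5 highest and 3 lowest per kb, and 1 gene per direction of each further list; any other member given with values was named after its values were seen. The members and lists were chosen with earlier results of these data known. Alternatives were DESeq2 1.42.0, its size factors, library totals, other low-count filters, only the groups compared, the replicate number as a block, a score of oligodendrocyte, astrocyte, neuron and endothelial markers, removal of ribosomal and mitochondrial genes, any fold change, and each mouse left out. An alternative without the library of each group with the highest oligodendrocyte markers was added after seeing the data. The 19 alternatives counted per gene in wildtype and the 20 in KO include it. They do not include any fold change, and the mice left out are those of the groups compared. Whether any difference between libraries reflects cell composition was not tested beyond these.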

Additional observations from a re-analysis of the deposited data

Results flagged for a closer look

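Of 176 combinations of member and group, 8 held a library whose gap to its nearest neighbour exceeded Dixon's 95% limit for the size of its group, where chance alone gives about 8.8. KO PBS replicate 2 was the highest of its group for *Gusb* (296 CPM, next 223), *Lipa* (175 CPM, next 149), *Glb1* (97.7 CPM, next 80.1) and *Galc* (72.2 CPM, next 59.4). KO LPS replicate 3 was highest for *Psap* (2583 CPM, next 1859) and lowest for *Tfeb* (16.5 CPM, next 39.3). *Gla* in KO LPS replicate 5 was 224 CPM, with 56.5 CPM next and 25.5 CPM lowest in the group. *Galc* in wildtype LPS replicate 1 was 90.5 CPM, with 64.9 CPM next. Such a number of flags is near what chance gives, and no explanation was examined.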

How the results depend on the processing

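The counts of members called after LPS stayed within 1.5 times of those given above in every alternative. Leaving out each mouse in turn gave 29 to 31 lower and 3 to 5 higher members in wildtype and 27 to 30 lower and 4 to 6 higher in KO. Without the 4 libraries with most oligodendrocyte markers, an alternative chosen after seeing the data, the counts were 30 lower and 3 higher in wildtype and 27 lower and 6 higher in KO. Library totals without TMM moved the median log2FC of all tested genes from -0.06 to -0.15 in wildtype and from -0.01 to -0.12 in KO and gave 32 lower members in each genotype; the members' median minus that of all genes was -0.67 and -0.73, and over all settings it ran from -0.80 to -0.59 in wildtype and from -0.83 to -0.63 in KO. Between genotypes, 0 members were called in all other alternatives, among them any fold change at an adjusted p-value under 0.05 (at an unadjusted p-value and any fold change *Ids* passed after LPS, as given above); over the fits that leave out a mouse the count higher in KO after LPS ran from 0 to 1, the gene being *Gla*, without KO LPS replicate 1 (log2FC 0.97) or replicate 3 (log2FC 0.93). The interaction gave 0 members throughout. With the replicate number as a replicate block, 30 members were lower and 3 higher in wildtype, and 29 lower and 5 higher in KO. That block joined same-numbered libraries of both genotypes. Across genotypes, their deviations from the group means correlated at -0.10 on average after LPS and -0.01 after PBS. The block therefore does not adjust for a pairing within each genotype alone. Same-numbered mice are different animals. Their deviations correlated at -0.04 to 0.58 in wildtype (mean 0.33) and at 0.03 to 0.54 in KO (mean 0.25). The numbers were not treated as pairs, because the lowest values were below the 0.1 required of every pair. Still, 5 of 8 wildtype and 6 of 10 KO libraries correlated best with their own number. Whether same-numbered mice of a genotype shared handling was not tested. Calls near a log2FC of 0.5 (*Ctsz*, *Ctsb*, *Ctsa*, *Gaa*, *Ids*, *Ppt1*, *Lamp1*) and those of *Tfeb* and *Gla* in wildtype depended on the setting, as given beside them, and *Lgmn* in KO was lost without those 4 libraries. No called member changed sign. The lowest count of any member in any library was 228, above the floor of 3 counts.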
